A study of Mus musculus with 10 samples.

Results

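Cholesterol synthesis and its control by SREBP2 were followed through 7 genes, namely *Srebf2*, which encodes SREBP2 itself, its feedback partner *Insig1*, and the synthesis enzymes *Hmgcs1*, *Idi1*, *Fdft1*, *Sqle* and *Cyp51*. They were chosen by gene symbol from tables of read counts for mouse liver, and all 7 were found among the 24052 genes listed. The tables hold 5 wild-type (WT) livers and 5 livers labelled with a deletion of *Ndrg3* exon 4 (Ndrg3 LKO), all from mice of C57BL/6 background fed ad libitum, and the methods give a backcross of the floxed line to C57BL/6N. The study describes loxP sites around exon 4 and a Cre transgene driven by the albumin promoter, with WT littermates as controls. As background, this promoter is active in hepatocytes, and other liver cells are not its usual target. The study's legends on these livers count fewer Ndrg3 LKO livers than the tables hold and name none as left out. The methods put the age of the mice at 8 to 10 weeks, whereas a legend on the same livers gives 10 to 12 weeks. The methods describe a last cross of heterozygous floxed mice with Cre to homozygous floxed mice. Littermates of that cross would carry a floxed allele, but the methods call the controls wild-type. Their genotype at *Ndrg3* and whether they carried Cre are not stated in the sources used here.

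The study sequenced these livers to set gene expression beside metabolite changes, and the comparison made here asks which steps of sterol synthesis differed between the genotypes. Cells sense cholesterol in the membrane of the endoplasmic reticulum. When sterols are scarce, the escort protein SCAP carries the SREBP2 precursor to the Golgi, where proteases release a transcription factor that switches on the enzymes of cholesterol synthesis. When sterols are plentiful, INSIG proteins hold SCAP back, and *Insig1* is itself an SREBP target. The liver uses this pathway to supply cholesterol for membranes, lipoproteins and bile acids. The counts measure mRNA, and neither SREBP2 processing nor sterols were measured in them.

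The libraries held 20872262 to 24747870 counts in WT (median 22022138) and 23474693 to 30450057 in Ndrg3 LKO (median 29089210). Levels are CPM, the reads of a gene scaled to a common library size, after edgeR's trimmed mean of M-values adjustment (TMM CPM). *Ndrg3* was 16.0 to 21.9 TMM CPM in WT and 7.08 to 9.18 in Ndrg3 LKO, with no overlap, a log2 fold change of -1.20 (standard error, SE, 0.13, edgeR quasi-likelihood test, Benjamini-Hochberg adjusted p = 3.68e-05). Ndrg3 LKO replicate 5 stood apart from the other Ndrg3 LKO livers. Its score on the first principal component, which held 68.7% of the variance, was 14.1, against 51.1 to 56.6 in Ndrg3 LKO replicates 1 to 4 and -49.9 to -43.1 in WT. The summed TMM CPM of 9 hepatocyte markers was 137100 to 178300 in WT, 36390 to 42960 in Ndrg3 LKO replicates 1 to 4, and 152100 in Ndrg3 LKO replicate 5. *Alb* made up most of that sum. Single markers placed replicate 5 differently. *Hnf4a* (362 against 590 to 794 TMM CPM in WT), *Fgb* (2526 against 3602 to 6729) and *Apoa1* (14020 against 16790 to 24990) were below every WT liver. *Alb*, *Ttr*, *Serpina1c*, *Tat* and *Cps1* were inside the WT range in replicate 5, and *Apoh* was just above it (3638 against 2310 to 3613). Over 10 livers *Cps1* (log2 fold change 0.09) and *Apoh* (-0.63) did not pass the test. Without replicate 5 *Apoh* passed at -0.98 (edgeR adjusted p = 5.57e-04). Sums were higher in every Ndrg3 LKO liver than in any WT liver for 8 endothelial markers (124 to 162 against 56.8 to 74.7) and 8 stellate and fibroblast markers (247 to 324 against 115 to 182), whereas 11 macrophage markers overlapped (210 to 648 against 93.0 to 231). No marker on these lists was at 0 in all 10 livers. In whole tissue, fewer cells of a type and less RNA per cell cannot be told apart. Because of replicate 5, each member and each list count is given for all 10 livers and again without that liver, and so are other genes whose call changed. All other genes named as risen or fallen over 10 livers passed in the same direction without it.

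The promoters are shown because the 7 genes share a known regulator and varied together between livers. The RefSeq promoter table, on GRCm38.p6, held 5 of the 7 genes, and the 250 bases before the annotated start were searched on both strands for CACNCCAC, the core of a sterol response element to which SREBPs bind, for CCAAT, bound by NF-Y, and for GGGCGG, bound by Sp1. A looser form of the element, TCACCNCA, was added after the sequences were seen and can overlap the core. Sequences run 5′ to 3′ on the gene's strand, and capitals mark the matches:
*Srebf2* promoter, chr15:82147019-82147268, plus strand: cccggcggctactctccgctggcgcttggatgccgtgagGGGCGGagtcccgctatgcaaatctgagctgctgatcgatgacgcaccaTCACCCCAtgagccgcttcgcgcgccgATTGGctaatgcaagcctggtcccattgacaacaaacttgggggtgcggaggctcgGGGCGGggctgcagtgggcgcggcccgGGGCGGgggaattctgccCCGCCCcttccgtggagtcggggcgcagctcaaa
*Hmgcs1* promoter, chr13:119690101-119690350, plus strand: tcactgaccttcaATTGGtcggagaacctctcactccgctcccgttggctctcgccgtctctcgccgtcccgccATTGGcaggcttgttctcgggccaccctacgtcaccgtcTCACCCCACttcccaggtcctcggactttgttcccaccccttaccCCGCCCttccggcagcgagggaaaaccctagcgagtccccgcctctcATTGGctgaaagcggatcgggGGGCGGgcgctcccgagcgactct
*Cyp51* promoter, chr5:4104698-4104947, minus strand: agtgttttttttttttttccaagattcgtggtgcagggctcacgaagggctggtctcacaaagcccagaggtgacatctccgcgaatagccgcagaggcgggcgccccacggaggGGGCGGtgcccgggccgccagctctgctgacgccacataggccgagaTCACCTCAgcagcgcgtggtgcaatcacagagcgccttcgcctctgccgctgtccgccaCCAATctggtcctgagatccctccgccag
*Insig1* promoter, chr5:28071162-28071411, plus strand: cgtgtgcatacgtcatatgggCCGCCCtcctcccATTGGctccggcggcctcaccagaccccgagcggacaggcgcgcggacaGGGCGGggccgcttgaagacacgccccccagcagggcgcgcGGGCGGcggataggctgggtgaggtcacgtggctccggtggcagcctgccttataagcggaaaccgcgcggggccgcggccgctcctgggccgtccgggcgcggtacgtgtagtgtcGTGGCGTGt

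*Hmgcs1* held the core as CACCCCAC from base -136 to -129 before its start, overlapping a match to the looser form. *Insig1* held the core on the opposite strand, printed as GTGGCGTG, from -9 to -2. *Srebf2* held only the looser form, TCACCCCA, from -162 to -155, and *Cyp51* held TCACCTCA from -88 to -81. *Idi1* matched neither form. The core was in 5.29% and the looser form in 3.61% of the 32851 promoter windows searched. CCAAT and GGGCGG were each in all 5 windows, against 33.8% and 32.7% of all windows. These matches describe letters and are not binding sites shown by the data.

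*Srebf2* was the only member that passed the test over all 10 livers. It lies on chromosome 15 of mm9 (81977696 to 82035806, plus strand) and holds the microRNA gene *Mir33* on the same strand. Its level in WT replicates 1 to 5 was 67.6, 50.4, 43.7, 44.5 and 44.5 TMM CPM, and in Ndrg3 LKO replicates 1 to 5 it was 40.3, 23.7, 45.01, 25.2 and 37.9. Ndrg3 LKO replicates 2 and 4 were lowest, and only replicate 3 reached into the WT range. The mean fell from 50.2 ± 10.1 (SD, n = 5) to 34.4 ± 9.46 (SD, n = 5), a log2 fold change of -0.54 (SE 0.20, edgeR adjusted p = 0.0405), and without Ndrg3 LKO replicate 5 it was -0.59 (edgeR adjusted p = 0.0326). The call was near the threshold and was lost under 7 of 19 alternatives. These included quantile normalization (-0.49, limma adjusted p = 0.0583) and a filter of mean CPM of at least 5 (-0.49, edgeR adjusted p = 0.0680). Without WT replicate 1, the liver with the highest level, the change was -0.43 (edgeR adjusted p = 0.0963), and it was also lost without WT replicate 2 (adjusted p = 0.0626), Ndrg3 LKO replicate 2 (adjusted p = 0.0769) or Ndrg3 LKO replicate 4 (adjusted p = 0.0959). Over all genes 48.5% of 11208 passed the test, and 23.0% passed with a lower level in Ndrg3 LKO, so 1 of 7 members is a smaller share than that of all genes. Under library-size scaling alone, which shifts the median of all genes to 0.56 on the log2 scale, *Srebf2* was at -0.02, and relative to that median at -0.58.

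*Insig1*, which retains the SCAP and SREBP complex in the endoplasmic reticulum, was the most uneven member. It lies on chromosome 5 (28397952 to 28405201, plus strand of mm9). WT replicates 1 to 5 had 188.5, 207.6, 205.9, 218 and 191.6 TMM CPM, a range of 1.16-fold. Ndrg3 LKO replicates 1 to 5 had 77.3, 15.2, 21.8, 24.9 and 308.7 TMM CPM, a range of 20.3-fold. Replicates 1 to 4 all lay below every WT liver, and replicate 5 lay above every WT liver. With all 10 livers the log2 fold change was -1.18 (SE 0.72, edgeR adjusted p = 0.192, approximate 95% interval -2.58 to 0.23). Without Ndrg3 LKO replicate 5 the groups did not overlap, and the change was -2.55 (SE 0.42, edgeR adjusted p = 4.58e-04). In this test that liver decided the call. With all 10 livers, *Insig1* also passed under quantile normalization (-1.98, adjusted p = 0.0215) and with limma (-2.11, adjusted p = 0.0166), so the method bore on the call as well.

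**Figure D1:**
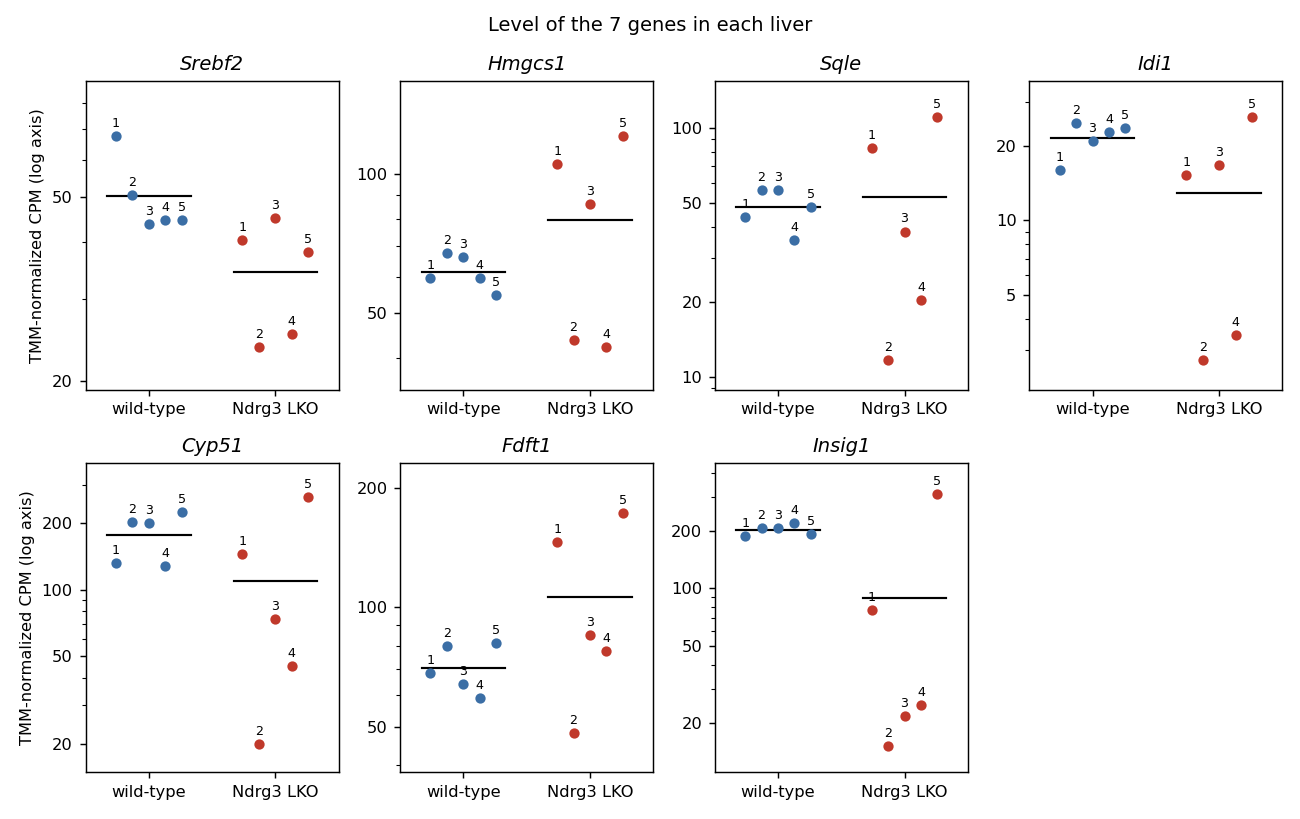
TMM-normalized CPM of the 7 genes (log axis, a separate scale for each gene) in 5 WT livers (blue) and 5 Ndrg3 LKO livers (red). Numbers are replicate numbers and bars are group means, with Ndrg3 LKO replicate 5 highest of its group for 6 of the 7 genes and replicates 2 and 4 lowest for 6 of the 7.

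The first enzymes of the mevalonate pathway also varied among Ndrg3 LKO livers. *Hmgcs1* encodes the cytosolic HMG-CoA synthase, which makes the precursor of mevalonate. Its WT levels were 59.5, 67.4, 66.1, 59.4 and 54.7 TMM CPM for replicates 1 to 5. In Ndrg3 LKO they were 105.4, 43.8, 86.3, 42.3 and 121, so that replicates 1, 3 and 5 were above every WT liver and replicates 2 and 4 below every WT liver. The log2 fold change of 0.38 (SE 0.27, interval -0.16 to 0.91) did not pass the test (edgeR adjusted p = 0.270), nor did 0.16 without Ndrg3 LKO replicate 5 (adjusted p = 0.596).

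*Idi1* encodes isopentenyl-diphosphate isomerase, which prepares the isoprenoid units for chain building. It lies on chromosome 13 (8884852 to 8891641, plus strand of mm9). Its WT levels were 15.9, 24.6, 20.97, 22.8 and 23.5 TMM CPM, and its Ndrg3 LKO levels were 15.3, 2.72, 16.7, 3.42 and 26.1. Replicates 2 and 4 were far below the WT range, replicate 1 just below it, replicate 3 within it and replicate 5 just above it. The log2 fold change was -0.75 (SE 0.51, interval -1.74 to 0.23, edgeR adjusted p = 0.234), and -1.19 without Ndrg3 LKO replicate 5 (edgeR adjusted p = 0.0582).

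Among the enzymes that commit the pathway to sterols, *Fdft1* encodes squalene synthase. It lies on chromosome 14 (63763990 to 63796630, minus strand of mm9) and overlaps *Ctsb* on the opposite strand. A stranded kit was used, but the strand setting of the counting is not given in the sources used here, so reads of the overlapping part may have been assigned to either gene. *Fdft1* was 68.1, 79.7, 63.9, 58.8 and 81.1 TMM CPM in WT and 145.5, 48.2, 84.8, 77.7 and 172.8 in Ndrg3 LKO. Replicates 1, 3 and 5 were above the WT range, replicate 4 was inside it and replicate 2 below it. The log2 fold change was 0.59 (SE 0.29, interval 0.02 to 1.16, edgeR adjusted p = 0.111). That interval lies just above 0 and is not adjusted for the number of genes tested. Without Ndrg3 LKO replicate 2 the change was 0.77 and passed the test (edgeR adjusted p = 0.0175), and without Ndrg3 LKO replicate 5 it was 0.33 (edgeR adjusted p = 0.287).

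*Sqle* encodes squalene epoxidase, a rate-limiting step of the sterol branch. It lies on chromosome 15 (59146632 to 59162747, plus strand of mm9). Its levels were 43.7, 56.3, 56.3, 35.5 and 47.9 TMM CPM in WT and 82.7, 11.7, 38.3, 20.3 and 110.2 in Ndrg3 LKO. The group means of 48.0 ± 8.82 and 52.6 ± 42.3 (SD, n = 5 each) were close, while replicates 1 and 5 lay above every WT liver and replicates 2 and 4 below. The log2 fold change was 0.13 (SE 0.49, interval -0.82 to 1.09, edgeR adjusted p = 0.839), and its sign turned to -0.34 without Ndrg3 LKO replicate 5 (edgeR adjusted p = 0.544) and to -0.09 without Ndrg3 LKO replicate 1 (adjusted p = 0.903).

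*Cyp51* encodes lanosterol 14-alpha-demethylase, a cytochrome P450 that acts on the first sterol of the pathway. It lies on chromosome 5 (4081145 to 4104746, minus strand of mm9). Its WT levels were 132.2, 202.3, 201.8, 127.9 and 225.1 TMM CPM, and its Ndrg3 LKO levels were 146.1, 19.98, 74.0, 45.3 and 263.9. Replicates 2, 3 and 4 lay below every WT liver, replicate 1 inside the WT range and replicate 5 above it. The log2 fold change was -0.70 (SE 0.53, interval -1.74 to 0.34, edgeR adjusted p = 0.296). Without Ndrg3 LKO replicate 5 it was -1.33 and passed the test (SE 0.46, edgeR adjusted p = 0.0294). In those 9 livers 3 of 7 members were called, all lower (*Srebf2*, *Cyp51* and *Insig1*), beside 55.6% of 11446 genes.

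**Figure D2:**
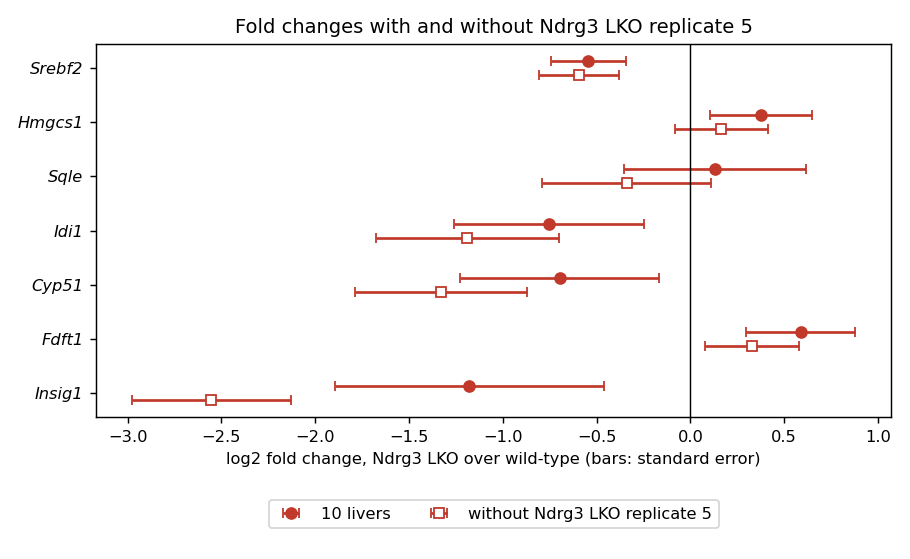
Log2 fold change of each gene in Ndrg3 LKO over WT from edgeR (x axis), with bars of 1 standard error, for all 10 livers (filled circles) and without Ndrg3 LKO replicate 5 (open squares). *Insig1* moved from -1.18 to -2.55 and *Sqle* from 0.13 to -0.34, while *Srebf2* stayed between -0.54 and -0.59.

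For most members the Ndrg3 LKO livers lay on both sides of the WT livers, and they did so in a similar order from gene to gene. The whole WT range lay inside the Ndrg3 LKO range for 6 of 7 members, all but *Srebf2*, beside 15.6% of all genes tested. Ndrg3 LKO replicate 2 was below every WT liver for all 7 members and replicate 4 for 6, with median differences from the WT mean of -1.93 and -1.18 on the log2(CPM + 1) scale. Replicate 5 was above every WT liver for 6 members, with a median difference of 0.61. Replicate 5 was the highest and replicates 2 and 4 the lowest Ndrg3 LKO livers at once for 5 members, beside 6.57% of all genes. Replicate 5 was also the highest for 8 of 9 hepatocyte markers, beside 3563 of 11208 genes, but replicates 2 and 4 were the lowest for 0 of these markers. Leaving replicate 5 aside, replicates 2 and 4 were both below replicates 1 and 3 for 6 members, beside 17.4% of all genes. *Sqle*, *Cyp51* and *Fdft1* had one identical order, from replicate 5 through 1, 3 and 4 down to 2, which 2.72% of all genes tested had. The members are known targets of one regulator and share the 10 libraries, so they are not independent observations of this order. The orders counted here were chosen after the members' values were seen, so the shares of all genes beside them are a description. Positions and orders, here and below, were counted on TMM CPM only, and some change without the TMM adjustment. *Hmgcs1* had 1804 of 30450057 counts in Ndrg3 LKO replicate 2, a larger share than in any WT liver. As a share of counts, *Hmgcs1* and *Fdft1* were also higher in Ndrg3 LKO replicate 1 than in replicate 5.

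The hepatocyte marker sum, most of it *Alb*, was 42960, 37050, 36390 and 37790 TMM CPM in Ndrg3 LKO replicates 1 to 4. *Cyp51* was 146.1 TMM CPM in replicate 1 and 19.98 in replicate 2. Replicate 5 was highest and replicate 2 lowest for 4 of 9 hepatocyte markers and 5 of 7 members, beside 1616 of 11208 genes. In replicates 1 to 4, *Ttr* was 5170, 2344, 2910 and 3304 TMM CPM and *Serpina1c* 1169, 429, 465 and 1336. *Cps1* was instead highest in replicate 2, at 3901, 6869, 6251 and 4194. The macrophage marker sum was 644, 210, 648 and 344 in the same livers and 267 in replicate 5, so replicates 2 and 4 had less than replicates 1 and 3. The part of cell makeup in the members' order was not tested.

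The standard deviation of log2(CPM + 1) was larger in Ndrg3 LKO than in WT for all 7 members, beside 7885 of 11208 genes tested. Its medians were 1.29 and 0.24 for the members, against 0.29 and 0.21 over all genes tested. *Insig1* had the widest gap, at 1.74 in Ndrg3 LKO and 0.09 in WT, and 0.98 in Ndrg3 LKO without replicate 5. *Cyp51* was at 1.42 and 0.38, *Sqle* at 1.31 and 0.27, and *Idi1* at 1.29 and 0.24. *Fdft1* and *Hmgcs1* were at 0.73 and 0.70 in Ndrg3 LKO, and *Srebf2* at 0.41. Only 0.767% of all genes had a larger Ndrg3 LKO spread than *Sqle*, 0.625% a larger one than *Cyp51*, and 27.1% a larger one than *Srebf2*. Without replicate 5 the spread was still larger in Ndrg3 LKO for all 7, beside 6563 of 11208 genes. An exact permutation test of the deviations from the group medians, chosen after the data were seen, gave p = 0.0476 for *Sqle* and 0.0635 to 0.349 for the other 6, beside 0.999% of all genes with a larger Ndrg3 LKO spread at an unadjusted p under 0.05. No gene passed that test after Benjamini-Hochberg adjustment over all genes (smallest adjusted p = 0.984), so the wider spread is a description. It was not particular to the members. Spread was also larger in Ndrg3 LKO for 9 of 9 hepatocyte markers (medians of 0.82 and 0.22) and 7 of 7 tested proliferation genes (1.025 and 0.198), beside the same 7885 of 11208 genes. Medians were closer for macrophage (0.67 and 0.495), biliary (0.41 and 0.32), stellate and fibroblast (0.30 and 0.28) and endothelial markers (0.20 and 0.21).

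**Figure D3:**
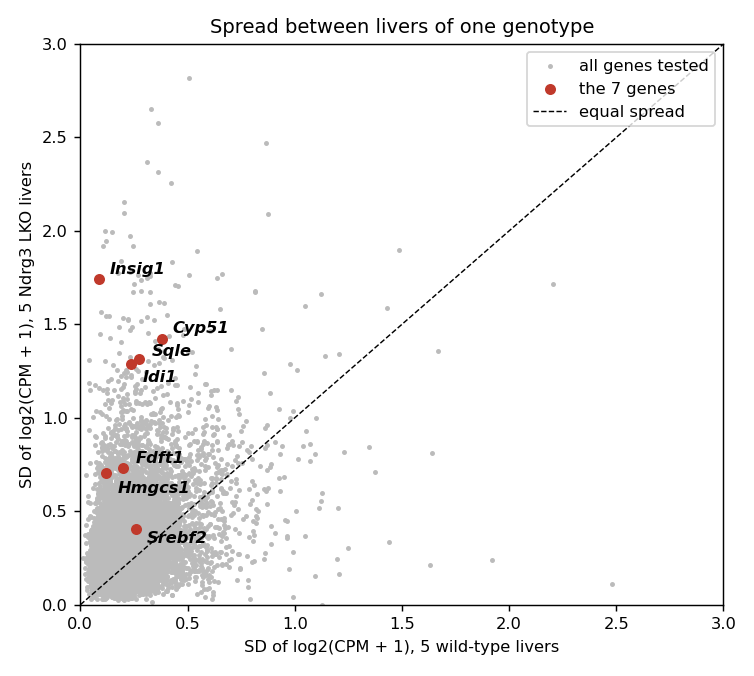
Standard deviation of log2(CPM + 1) over 5 Ndrg3 LKO livers (y axis) against that over 5 WT livers (x axis) for every gene tested (grey) and the 7 genes (red), with a dashed line of equal spread. All 7 lie above the line, beside 7885 of 11208 genes tested with the larger spread in Ndrg3 LKO. *Insig1* is highest of the 7 at 1.74 against 0.09, and 2 genes fall outside the axes.

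Per kilobase of annotated exon, the scale on which genes can be compared, *Insig1* was highest in WT at 76.4 TMM CPM per kb, followed by *Cyp51* at 41.5 and *Fdft1* at 24.6. These 3 did not overlap each other across the WT livers. *Srebf2* at 10.1, *Sqle* at 8.65 and *Idi1* at 7.52 TMM CPM per kb were lower, and each overlapped its neighbour in this order. In Ndrg3 LKO, *Fdft1* at 37.0, *Insig1* at 33.8 and *Cyp51* at 25.6 TMM CPM per kb overlapped widely. *Hmgcs1* had no length in the annotation used and was left out of this order.

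Most other enzymes of the pathway varied among Ndrg3 LKO livers in a like way. Of 16 further sterol synthesis enzymes, all tested, 3 passed over all 10 livers (1 higher, 2 lower), with a median log2 fold change of -0.19 beside 0.03 for all genes and a share called of 48.5% for all genes. Without Ndrg3 LKO replicate 5, 9 of 16 passed (1 higher, 8 lower), a share like the 55.6% of all genes. Counting these with the 5 member enzymes, Ndrg3 LKO replicate 2 was below every WT liver for 19 of 21 and replicate 4 for 18 of 21, while replicate 5 was above every WT liver for 18 of 21. Over all genes tested those livers were below for 34.8% and 35.0% and above for 33.2%. The WT range lay inside the Ndrg3 LKO range for 12 of the 16, and 8 of the 16 had the order of *Sqle*, *Cyp51* and *Fdft1*.

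*Tm7sf2*, a sterol C14-reductase that acts on the product of *Cyp51*, fell most. Its levels were 240.5, 305.8, 276.3, 182.2 and 318.6 TMM CPM in WT and 23.4, 3.79, 9.59, 14.8 and 108 in Ndrg3 LKO. Every Ndrg3 LKO liver was below every WT liver, and the log2 fold change was -3.06 (SE 0.75, edgeR adjusted p = 0.00617), or -4.37 without Ndrg3 LKO replicate 5. *Lbr*, which can carry out the same reduction, was at -0.30 and did not pass (edgeR adjusted p = 0.303), but passed at -0.54 without Ndrg3 LKO replicate 5 (edgeR adjusted p = 0.0259).

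*Nsdhl*, a dehydrogenase that helps to remove the methyl groups at carbon 4, fell without overlap from 62.8 ± 8.45 to 16.5 ± 14.1 TMM CPM (SD, n = 5 each). Its Ndrg3 LKO livers had 18.5, 5.34, 12.5, 6.11 and 39.9 TMM CPM, and its log2 fold change was -1.94 (SE 0.47, edgeR adjusted p = 0.00509). *Lss*, which closes squalene epoxide into lanosterol, rose from 21.8 ± 2.77 to 36.8 ± 10.6 TMM CPM (SD, n = 5 each), a log2 fold change of 0.75 (SE 0.19, edgeR adjusted p = 0.00688). *Lss*, whose product lies between those of *Sqle* and *Cyp51* in the pathway, was above every WT liver in 4 of 5 Ndrg3 LKO livers. Over all tested genes 31.5% had groups that did not overlap, beside 0 of the 7 members and 2 of these 16 enzymes.

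Enzymes with the members' order included *Fdps*, farnesyl diphosphate synthase, which had 244, 32.7, 130.3, 74.3 and 399 TMM CPM in Ndrg3 LKO replicates 1 to 5 and 271 to 373 in WT. *Msmo1*, which starts the removal of the methyl groups at carbon 4, had 104.7, 10.2, 46.6, 15.6 and 197.8 in the same livers and 74.4 to 126.5 in WT. *Fdps* at -0.89 and *Msmo1* at -0.49 on the log2 scale did not pass over 10 livers (edgeR adjusted p = 0.162 and 0.555). Without Ndrg3 LKO replicate 5, *Fdps* passed at -1.45 (edgeR adjusted p = 0.0177) and *Msmo1* was at -1.26 (edgeR adjusted p = 0.0770). *Hsd17b7* departed from the pattern, with 36.9 to 53.6 TMM CPM in Ndrg3 LKO and 39.3 to 57.1 in WT.

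**Figure D4:**
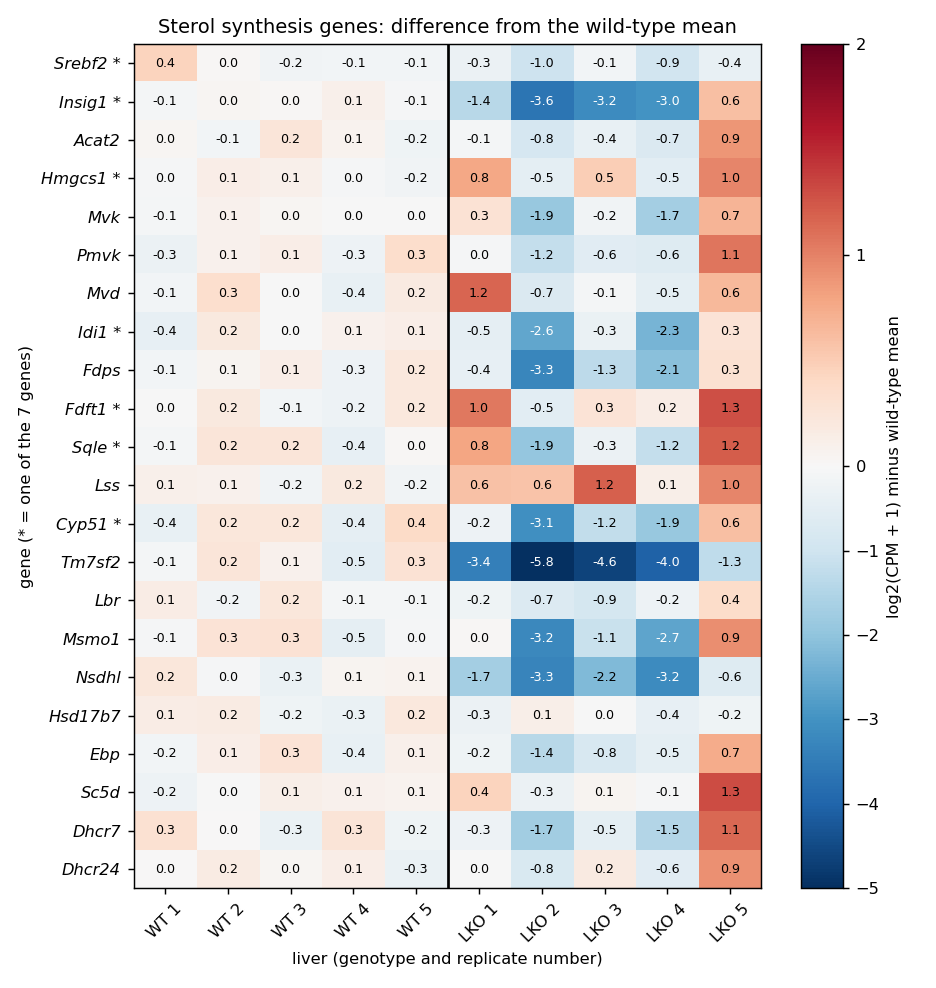
Difference of log2(CPM + 1) from the WT mean for *Srebf2*, *Insig1* and 20 sterol synthesis enzymes (rows, in pathway order, the 7 genes marked with an asterisk) in each liver (columns). Blue fills most of the columns of Ndrg3 LKO replicates 2 and 4 and red most of that of replicate 5, and *Tm7sf2* and *Nsdhl* are blue in all 5 Ndrg3 LKO livers.

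Of 15 genes that activate SREBP or sense sterols, all tested, 8 passed (3 higher, 5 lower), with a median log2 fold change of -0.05, and 8 passed without Ndrg3 LKO replicate 5. These shares are close to the 48.5% and 55.6% of all genes. The median standard deviation of log2(CPM + 1) for the 15 was 0.21 in both groups. *Insig2*, the second INSIG protein of liver, was 479.6, 356.3, 483.5, 166.6 and 297.6 TMM CPM in WT and 128.4, 143.4, 106.7, 132.3 and 179.2 in Ndrg3 LKO. Only Ndrg3 LKO replicate 5 reached into the WT range, and the log2 fold change of *Insig2* was -1.37 (SE 0.27, edgeR adjusted p = 0.00146).

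*Paqr3*, a Golgi protein that tethers SCAP and SREBP there, fell by 2.17 on the log2 scale (edgeR adjusted p = 6.73e-04), with 1.67 to 3.99 TMM CPM in WT and 0.35 to 1.09 in Ndrg3 LKO. *Paqr3*, *Scap*, *Lss*, *Rnf139*, *Ubxn8*, *Srebf1*, *Npc1*, *Acss2*, *Pdss1*, *Pdss2* and *Abcg8* also overlap a gene on the opposite strand, with the limit given for *Fdft1*, and *Tm7sf2* overlaps *1110014N23Rik* on its own strand. *Scap* itself fell by 0.66 on the log2 scale (SE 0.19, edgeR adjusted p = 0.0120), with 52.4, 52.4, 52.5, 60.0 and 94.8 TMM CPM in Ndrg3 LKO replicates 1 to 5 and 78.4 to 112.9 in WT. Replicate 5 was the only Ndrg3 LKO liver inside the WT range of *Scap*. *Rnf139*, a ubiquitin ligase of the endoplasmic reticulum, was at -0.54, and the protease gene *Mbtps1* was at -0.43 but turned to 0.09 under library-size scaling. *Rnf145*, another ubiquitin ligase, rose by 1.16, with 13.9 to 21.7 TMM CPM in Ndrg3 LKO replicates 1 to 4, 63.6 in replicate 5 and 9.001 to 17.3 in WT, and its change was 0.56 without Ndrg3 LKO replicate 5 (edgeR adjusted p = 0.0365). *Erlin1* (0.58) and *Ubxn8* (0.43) also rose on the log2 scale.

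*Srebf1*, which encodes the sister factor that drives fatty acid synthesis, had the members' order. It was 73.9, 27.0, 62.7, 39.0 and 285 TMM CPM in Ndrg3 LKO replicates 1 to 5 and 55.9 to 145.1 in WT. Its log2 fold change was 0.19 over 10 livers (edgeR adjusted p = 0.798) and -0.77 without Ndrg3 LKO replicate 5 (edgeR adjusted p = 0.0716).

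Of 10 other SREBP2 targets, 9 were tested and 2 passed, both lower, with a median log2 fold change of -0.36, beside 48.5% of all genes called. Without Ndrg3 LKO replicate 5, 4 passed, all lower, beside 55.6% of all genes. *Npc1*, which exports cholesterol from lysosomes, fell by 1.09 on the log2 scale without overlap (33.7 to 62.3 TMM CPM in Ndrg3 LKO, 70.4 to 136.2 in WT, edgeR adjusted p = 0.00180). *Stard4*, a cytosolic sterol carrier, fell by 0.85 (12.2 to 20.9 TMM CPM in Ndrg3 LKO, 20.1 to 36.7 in WT, edgeR adjusted p = 0.00588). *Acss2*, which makes acetyl-CoA from acetate, had 37.0, 21.3, 23.1, 27.9 and 157.8 TMM CPM in Ndrg3 LKO replicates 1 to 5 and 92.7 to 130.3 in WT. Its log2 fold change was -1.06 over 10 livers (edgeR adjusted p = 0.0974) and -2.04 without Ndrg3 LKO replicate 5 (edgeR adjusted p = 3.55e-06). *Pnpla3*, at 0 to 1.32 TMM CPM, was not tested.

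In the isoprenoid branch, which leaves the pathway before squalene, 2 of 11 genes passed, both higher, with a median log2 fold change of 0.28, and 4 passed without Ndrg3 LKO replicate 5, beside 48.5% and 55.6% of all genes. They were *Pdss1* (0.94, edgeR adjusted p = 0.00292) and *Pdss2* (0.45, edgeR adjusted p = 0.0266), the subunits that build the side chain of coenzyme Q. Among 15 genes of sterol export, esterification and LXR, the receptor that answers to oxidized sterols, 13 were tested and 10 passed (4 higher, 6 lower), beside 48.5% of all genes called and 23.0% called lower, and 11 passed without Ndrg3 LKO replicate 5, beside 55.6%. The largest changes were in *Soat1*, a cholesterol-esterifying enzyme (1.44), *Scarb1*, the HDL receptor (-1.36), and *Abcg8*, a subunit of the canalicular sterol exporter (-1.32). As background, *Soat1* is also abundant in macrophages. Macrophage markers were higher in Ndrg3 LKO for 9 of 9 tested, beside 2864 of 11208 genes. Without Ndrg3 LKO replicate 5 they were higher for 10 of 10, beside 3255 of 11446 genes. The part of macrophages in the *Soat1* change was not tested. *Scarb1* was 123 to 180 TMM CPM in WT and 56.1 to 74.6 in Ndrg3 LKO, with replicate 5 at the top of its group but still below every WT liver (edgeR adjusted p = 2.92e-05). Replicates 2 and 4 were not both lowest for *Scarb1*, nor for *Abca1*, the exporter that loads HDL, which was 50.8 to 78.8 TMM CPM in Ndrg3 LKO and 108.5 to 145.5 in WT.

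**Figure D5:**
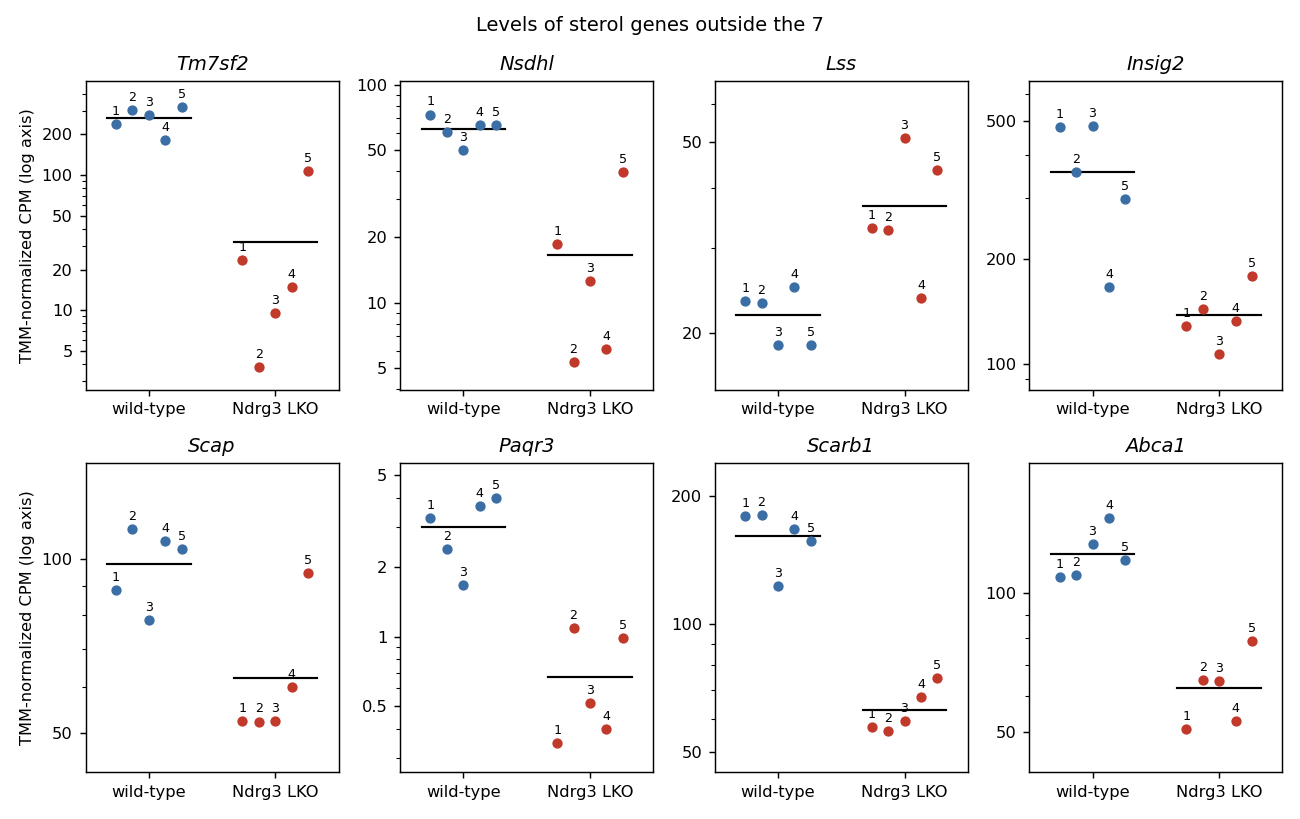
TMM-normalized CPM (log axis, a separate scale for each gene) of 8 sterol genes outside the 7 in WT (blue) and Ndrg3 LKO (red) livers, with replicate numbers and group means as bars. *Tm7sf2*, *Nsdhl*, *Paqr3*, *Scarb1* and *Abca1* do not overlap between the groups, and Ndrg3 LKO replicate 5 reaches the WT range for *Scap* and *Insig2*.

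Directions of the list genes named as changed held under median-of-ratios, library-size and quantile scaling, except that of *Mbtps1*. Library-size scaling turned the split of all calls from 2864 higher and 2577 lower to 5834 higher and 1009 lower, and that of the 15 SREBP genes from 3 and 5 to 8 and 2. The other SREBP2 targets turned from 0 higher and 2 lower to 3 higher and 0 lower, and the isoprenoid genes from 2 higher to 9 higher. Quantile scaling gave 5 higher and 1 lower for the isoprenoid genes. The positions, orders and spreads of single livers were not counted under these other scalings.

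The genes whose profile was closest to each member were found by the root mean square difference of log2(CPM + 1), centred on the WT mean, over the 10 livers. For *Cyp51* both were pathway enzymes, *Fdps* at 0.19 and *Msmo1* at 0.32. *Sqle* was closest to *Mvk*, mevalonate kinase, at 0.32 and to *Gsta2*, a glutathione transferase, at 0.34. *Idi1* was closest to *Ugdh* at 0.37, and *Insig1* to *Apol9b* at 0.40 and *Serpina6* at 0.42. *Hmgcs1* was closest to *Etnk2* and *Irf8*, both at 0.22, *Fdft1* to *Iah1* at 0.20 and *Ptpn18* at 0.21, and *Srebf2* to *Plod1* at 0.14 and *Ddx60* at 0.17. This likeness over 10 livers of 2 genotypes is a description.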

How the data were processed

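RNA of 10 livers (5 WT, 5 Ndrg3 LKO) was sequenced by the study from a stranded mRNA kit as paired reads of 100 bases. The authors mapped reads to mm9 with STAR and deposited raw gene counts from its count module, 1 table per liver, although the files are named for CPM. The submitters' processing notes list STAR 2.7.3a, Trim Galore 0.6.4 and Cufflinks 2.2.1, and the methods name an earlier version of STAR. The strand setting and annotation of the counts are not given in the sources used here. Groups came from the genotype label. No source says that replicate numbers pair mice, and deviations of same-numbered livers correlated at -0.36 to 0.04, so no pairing was used.

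Genes that reached 1 CPM in 5 or more livers (4 or more in fits of 9 livers) were tested with edgeR 4.0.16 (robust quasi-likelihood, TMM) under R 4.3.3, with Benjamini-Hochberg adjustment over all 11208 genes and a threshold of 0.05. The libraries held 20872262 to 30450057 counts, so 1 CPM in that filter, taken before the TMM adjustment, rests on over 20 counts. Replicate pairs differed by 27.2 to 543 times what counting error alone gives (chi-square per degree of freedom), so p-values rest on the spread between livers. Livers of one group are taken as separate mice. Exact permutation tests over 252 groupings were 2-sided, and their p-values are given for the spread between livers only. For a difference of group means the smallest possible p is 0.00794. Deviations from the group medians hold a 0 in each group, so for the spread the smallest possible p is larger. Alternatives used limma 3.58.1, DESeq2 1.42.0, other scalings, other filters, a replicate block and 9-liver fits. The fits were tested on simulated data. Locations and exon lengths came from GENCODE vM1 on mm9, and promoters from RefSeq. Members, lists and tests were chosen with earlier results of these data known. The text names the 7 members, the hepatocyte markers, genes of 3 sterol lists and the 3 genes with the largest called change in 2 further lists. It also names *Abca1* (chosen after its values were seen) and the 2 closest genes of each member. Some list genes and 1 closest gene are counted but not reported here. Biliary markers had 1 of 6 tested genes higher and 1 lower, T, B and neutrophil markers 1 of 1 higher, and proliferation genes 6 of 7 higher. Over all 11208 genes tested, 2864 were higher and 2577 lower. Without Ndrg3 LKO replicate 5, biliary markers had 2 of 6 higher and 1 lower, and the counts of the other 2 lists were unchanged. In that fit 55.6% of all genes were called.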

Additional observations from a re-analysis of the deposited data

Results flagged for a closer look

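Of 14 groups tested (7 genes in 2 genotypes), 2 held a liver far from the others by Dixon's criterion, which chance meets in about 1 of 20 groups. *Insig1* in Ndrg3 LKO replicate 5 was 308.7 TMM CPM, against 15.2 to 77.3 in the other 4 Ndrg3 LKO livers and 188.5 to 218 in WT. *Srebf2* in WT replicate 1 was 67.6 TMM CPM, against 43.7 to 50.4 in the other 4 WT livers, and the *Srebf2* call was lost without it. What set these livers apart was not tested.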

How the results depend on the processing

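Directions of 6 members held under all 19 alternatives, and that of *Sqle* turned under 6. The log2 fold change of *Sqle*, 0.13 in the reported fit, was -0.22 under quantile normalization, -0.28 with limma and a pseudocount of 1, -0.30 with a pseudocount of 0.1, -0.28 with a replicate block, -0.09 without Ndrg3 LKO replicate 1 and -0.34 without Ndrg3 LKO replicate 5. It was at most 0.39 with 1 liver left out (Ndrg3 LKO replicate 2) and 0.54 under library-size scaling. The number of members called, 1 in the reported fit, was 2 under library-size scaling (both higher, *Hmgcs1* and *Fdft1*), 2 with limma at either pseudocount, 0 with a filter of mean CPM of at least 5, and 2 with a replicate block, where *Insig1* was at -2.26 (adjusted p = 0.0260). Leaving out 1 liver at a time gave 0 to 3 members (0 without WT replicate 1, WT replicate 2 or Ndrg3 LKO replicate 4, and 3 without Ndrg3 LKO replicate 5), and 3 to 9 of the other 16 enzymes, 9 without Ndrg3 LKO replicate 5. Equal counts did not always hold the same gene. The 1 member called was *Insig1* under quantile normalization, and *Fdft1*, which was higher, without Ndrg3 LKO replicate 2. The count over all genes stayed within 4252 to 6843 in every alternative. Replicate numbers did not pair the livers: 0 of 10 livers correlated best with their own number. The cause of these shifts was not tested. With 5 livers a group and a wide Ndrg3 LKO spread, differences of the size seen for *Idi1* or *Cyp51* were not resolved.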
